A study of Mus musculus with 12 samples.

Results

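Scavenger receptors are cell-surface proteins through which macrophages bind and take up modified lipoproteins, microbes, dying cells and protein complexes. This account covers 6 of their genes in macrophages that had entered neuroblastoma spheres and in their culture mates that stayed outside. The genes are Msr1, Marco and Colec12 of class A, Scarb1 of class B, Stab1 of the stabilins and Cd163 of the scavenger receptor cysteine-rich family. They were chosen by name, as probe sets of the array with exactly 1 gene symbol, which gave 9 probe sets among 45141. Each gene is represented by its brightest probe set over the 12 arrays, and the 6 genes stand among 17097 named in this way.

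The arrays formed 4 groups of 3, in sphere or outside at 24 h or 48 h. Per the labels, spheres of the TT9423 neuroblastoma line were grown on agar and received C57BL/6 bone marrow-derived macrophages, without further treatment. In-sphere cells were CD11b+ macrophages recovered by enzymatic digestion and CD11b magnetic columns, and outside cells came from the agar culture, with no separate preparation described for them. Each replicate was an independent experiment with macrophages pooled over several wells, and the 48 h groups rest on the titles and time label, since the shared protocol describes a co-culture of 24 h. TT9423 cells alone were not analysed here, so RNA of carried-over sphere cells was looked for only through marker genes. In such bulk samples, fewer cells of a type and less RNA per cell cannot be told apart.

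As background, the class A receptors carry a collagen-like stalk and recognise polyanionic ligands. Msr1 encodes scavenger receptor A, a classical receptor for modified LDL, and Marco a related receptor for bacteria and particles that is inducible in many macrophages. Colec12 adds a C-type lectin domain. Scarb1 encodes the HDL receptor SR-BI, which transfers cholesteryl esters, and Stab1 encodes stabilin-1, an endocytic and sorting receptor known from alternatively activated and tumour-associated macrophages. Cd163 encodes the haemoglobin-haptoglobin receptor and is widely used as a marker of such macrophages.

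Macrophage markers were bright on all arrays. On the log2 RMA scale, which has no true zero, the markers Adgre1 (10.50 to 11.39), Csf1r (9.01 to 9.97), Itgam, which encodes CD11b (8.06 to 9.11), and Lyz2 (12.60 to 12.88) were far above 2.77 on every array. That value is the 40th percentile of all measurements and served as the filter level. A gene was tested if more than 2 arrays exceeded it, as 12488 genes did. The 9 granulocyte markers listed for this report also exceeded the filter level on every array, from Elane (4.36 to 6.88) to S100a9 (12.46 to 13.77). These values thus do not show that the samples held macrophages alone. The third in-sphere array of 48 h was unlike the rest. Its mean over all probe sets was 4.06, the lowest of the 12 arrays (highest 4.22), and differences that it moved by more than 1.5 times are given without it.

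The 6 receptor genes did not move together. Msr1 was higher in spheres at both times and Marco was lower at 24 h, whereas Scarb1, Stab1 and Colec12 passed no test and Cd163 was not above the filter level on any array. Limma, with p-values adjusted over all 12488 genes, called 1 member higher and 1 lower at 24 h, where 29.4% of all tested genes were called (15.8% higher and 13.6% lower). At 48 h it called 1 higher and 0 lower, against 37.5% of all tested genes (15.2% higher and 22.3% lower). The median log2 difference of the 5 tested members was 0.20 at 24 h and -0.38 at 48 h, beside -0.0068 and -0.10 over all tested genes. The 48 h median is the value of Colec12, which was -0.043 without the third in-sphere array of 48 h.

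**Figure D1:**
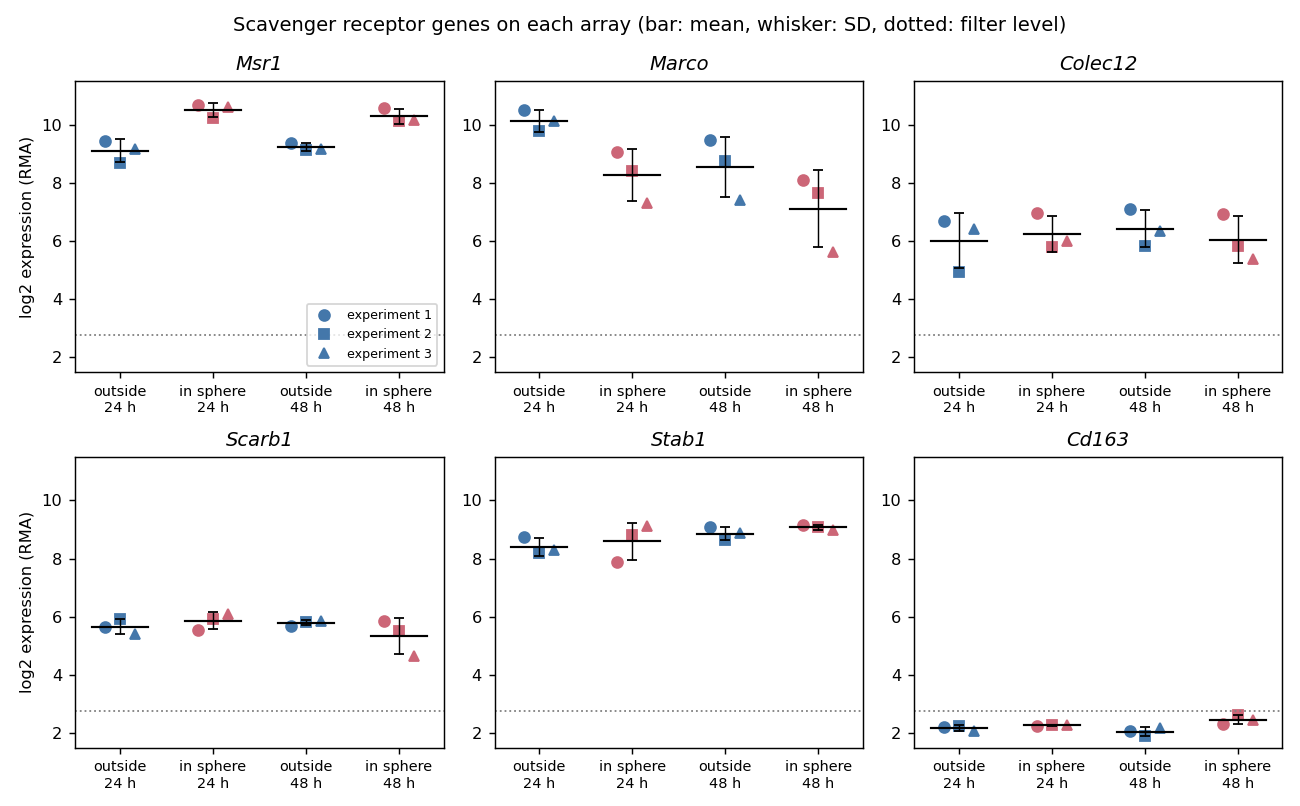
Log2 RMA expression (vertical axis) of the 6 receptor genes on each of 12 arrays, by group, with the group mean (bar) and SD (whisker). Symbols mark the experiment number and the dotted line the filter level of 2.77. Msr1 arrays in spheres lie above all arrays outside, Marco is highest outside at 24 h, and Cd163 lies below the dotted line throughout.

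Msr1 was higher in spheres at both times. At 24 h its 3 in-sphere arrays read 10.66, 10.23 and 10.61 and the outside arrays 9.45, 8.67 and 9.17 on the log2 scale. At 48 h the in-sphere arrays read 10.57, 10.12 and 10.17 and the outside arrays 9.38, 9.13 and 9.16. Every in-sphere array was thus above every outside array. The log2 difference was 1.40 ± 0.20 (SE, n = 3 against 3) at 24 h, a fold of 2.65 (limma, adjusted p = 2.91e-04), and 1.06 ± 0.20 at 48 h, a fold of 2.09 (limma, adjusted p = 0.00130). Of all tested genes, 5.40% differed by more than Msr1 in either direction at 24 h and 11.8% at 48 h. Groups without overlap were common, at 43.4% of all tested genes at 24 h and 51.6% at 48 h.

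Within a compartment, Msr1 passed no test with time. Its order of group means was in sphere at 24 h (10.50), in sphere at 48 h (10.29), outside at 48 h (9.22) and outside at 24 h (9.10), and both pairs of neighbours within a compartment overlapped. The 48 h minus 24 h difference was -0.22 ± 0.20 in spheres (95% interval -0.65 to 0.22) and 0.12 ± 0.20 outside (-0.31 to 0.56). Neither passed (limma, adjusted p = 0.733 and 0.883). The in-sphere difference changed by -0.34 ± 0.28 between the times (95% interval -0.96 to 0.28, limma, adjusted p = 0.658).

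Msr1 was the one member with several probe sets, and all 4 gave the same call. The 3 probe sets not used above differed at 24 h by 1.27 ± 0.19, 1.18 ± 0.22 and 1.29 ± 0.25, with adjusted p of 4.03e-04, 0.00164 and 0.00237 in a limma fit over 20235 probe sets. At 48 h their differences were 0.96 ± 0.19, 1.16 ± 0.22 and 0.92 ± 0.25, with limma adjusted p of 0.00189, 0.00132 and 0.0130. Each separated the in-sphere from the outside arrays without overlap at both times. The dimmest of the 4 ran from 6.60 to 6.70 in spheres and from 4.94 to 5.80 outside at 24 h.

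**Figure D2:**
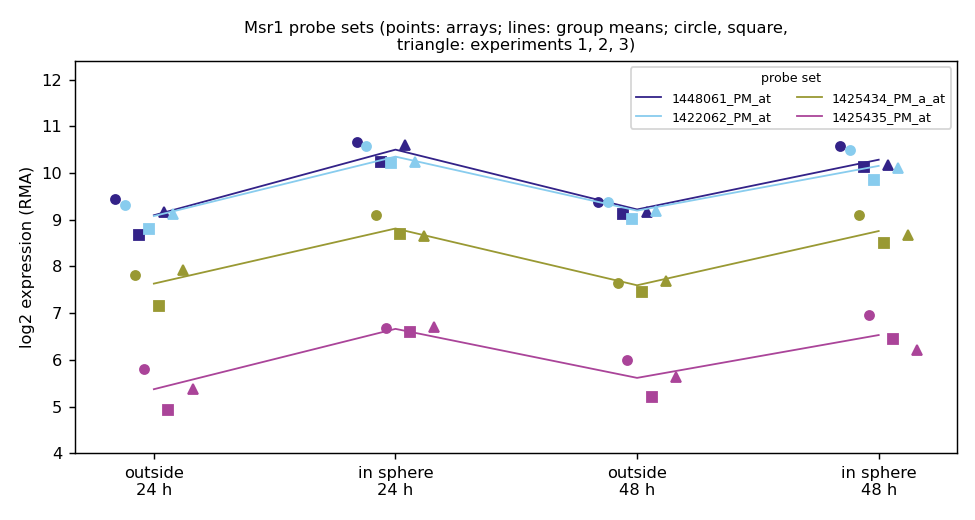
Log2 RMA expression (vertical axis) of the 4 Msr1 probe sets by group. Points are arrays, with circle, square and triangle for experiments 1, 2 and 3, and lines join group means. All 4 lines rise from outside to in sphere at both times, at levels that belong to each probe set and are not comparable between them.

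Marco went the other way and varied far more. At 24 h the in-sphere arrays read 9.08, 8.40 and 7.30 and the outside arrays 10.52, 9.77 and 10.11 on the log2 scale, without overlap. The difference was -1.87 ± 0.65 (SE, n = 3 against 3), so that Marco was 3.66-fold lower in spheres (limma, adjusted p = 0.0471). Of all tested genes 2.66% differed by more at 24 h. At 48 h the in-sphere arrays read 8.09, 7.64 and 5.63 and the outside arrays 9.48, 8.74 and 7.42, and these groups overlapped. The difference was -1.43 ± 0.65, which did not pass (limma, adjusted p = 0.105). With the experiment number as a block it did (-1.43 ± 0.35, limma, adjusted p = 0.00883), and the block also gave the 24 h difference a smaller error (-1.87 ± 0.35, limma, adjusted p = 0.00248).

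Marco was lower in spheres within each of the 6 pairs of arrays with the same number and time. At 24 h the differences within pairs came to -1.44, -1.37 and -2.81, and at 48 h to -1.39, -1.10 and -1.79. Without the block the call at 24 h was marginal. Omitting a single array ended it for 7 of 12 arrays, with an adjusted p from 0.0152 to 0.167 and a difference from -2.28 to -1.40. At 48 h the difference was -0.68 without in-sphere replicate 3 (adjusted p = 0.402) and -0.96 without outside replicate 1 (adjusted p = 0.328). Leaving out in-sphere replicate 1 or outside replicate 3 brought the call instead, at -1.91 (limma, adjusted p = 0.0496) and -1.99 (limma, adjusted p = 0.0388).

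**Figure D3:**
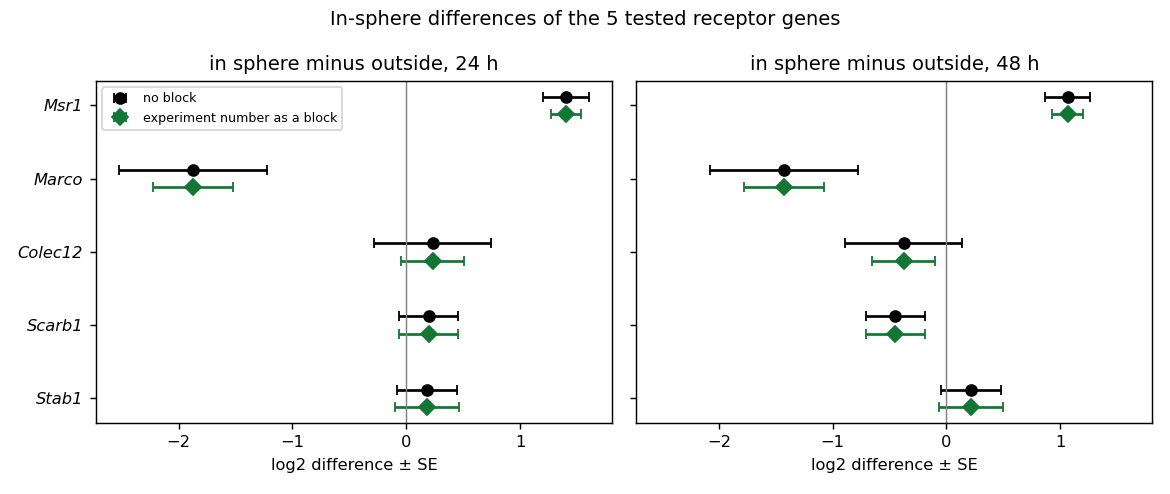
In-sphere minus outside log2 differences (horizontal axis) with SE for the 5 tested receptor genes at 24 h (left) and 48 h (right), without a block (circles) and with the experiment number as a block (diamonds). Msr1 and Marco lie on opposite sides of 0 at both times, and the block shortens the error of Marco from 0.65 to 0.35 and leaves those of Scarb1 and Stab1 near their width.

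With time, the Marco group means ran from 10.13 ± 0.38 (SD, n = 3) outside at 24 h to 8.55 ± 1.04 outside at 48 h, 8.26 ± 0.89 in spheres at 24 h and 7.12 ± 1.31 in spheres at 48 h. The first 2 groups did not overlap, as for 22.1% of all tested genes in that comparison, while the other neighbours overlapped. The 48 h minus 24 h difference was -1.58 ± 0.65 outside (95% interval -3.00 to -0.17), which did not pass (limma, adjusted p = 0.386) although only 0.144% of tested genes differed by more. With the block its adjusted p was 0.0636, and without outside replicate 3 of 48 h the difference was -1.02 (limma, adjusted p = 0.762). In spheres the difference was -1.14 ± 0.65 (95% interval -2.55 to 0.27, limma, adjusted p = 0.556), and -0.39 without the third in-sphere array of 48 h (limma, adjusted p = 0.916) or -0.73 without in-sphere replicate 1 of 24 h (limma, adjusted p = 0.741). Few of the tested genes were called with time, 0.336% outside and 0% in spheres, where 1341 had an unadjusted p under 0.05. The in-sphere difference of Marco changed by 0.45 ± 0.92 between the times (95% interval -1.55 to 2.44, limma, adjusted p = 0.881), and by 1.19 without the third in-sphere array of 48 h (limma, adjusted p = 0.636).

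In 3 of the receptors the same experiment was highest in every group, which is given as a description without a test. Replicate 1 was the highest array in 4 of 4 groups for Marco, for Msr1 and for Colec12. Averaged over the groups, the arrays of experiment 1 deviated from their group means by 0.78 for Marco, 0.74 for Colec12 and 0.24 for Msr1. Marco averaged -0.90 in experiment 3, whereas Colec12 was lowest in experiment 2 at -0.59. After removing the group means, Colec12 and Msr1 correlated over the 12 arrays at a Pearson r of 0.89 and Colec12 and Marco at 0.63. These were the highest of all pairs of members, while Marco and Msr1 correlated at 0.40. Such values share the 3 experiments and the same arrays and are given as a description. For Scarb1 and Stab1 no experiment was highest in 4 of 4 groups. How many of all tested genes had 1 experiment highest in every group was not counted. Over all tested genes, deviations of same-numbered in-sphere and outside arrays of the same time correlated at only 0.021 to 0.12.

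**Figure D4:**
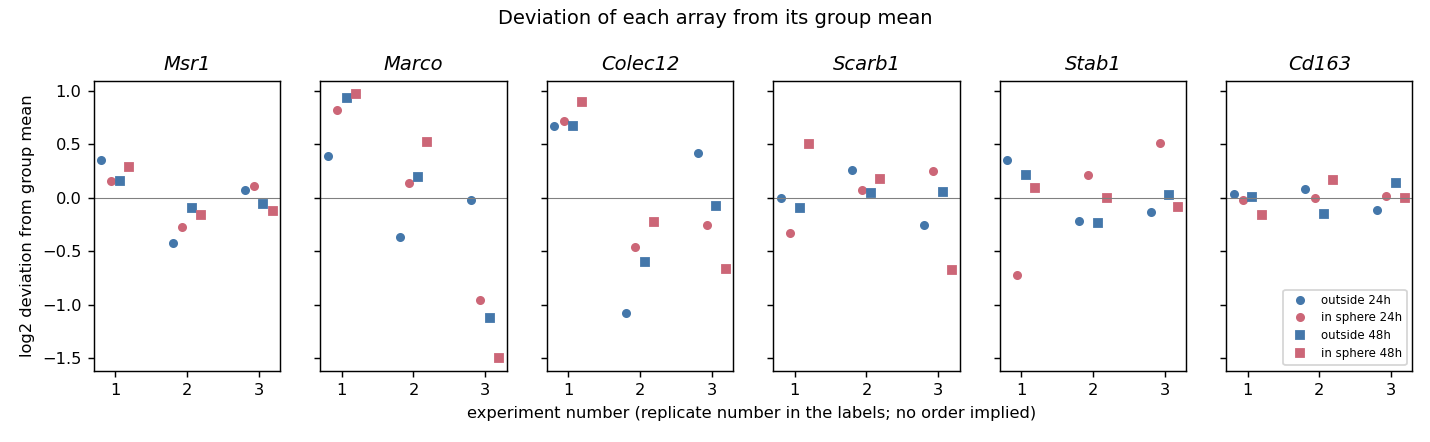
Deviation of each array from its group mean on the log2 scale (vertical axis) against the experiment number of the labels (horizontal axis, no order implied) for the 6 receptor genes, with circles for 24 h and squares for 48 h. Experiment 1 lies above 0 in all 4 groups for Msr1, Marco and Colec12, and Marco averages -0.90 in experiment 3.

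Colec12, the third class A receptor, passed no comparison. The in-sphere arrays read 6.95, 5.79 and 5.99 and the outside arrays 6.68, 4.93 and 6.42 at 24 h. At 48 h they read 6.94, 5.83 and 5.38 in spheres and 7.10, 5.83 and 6.36 outside. The groups overlapped throughout, and no neighbours in the order of the 4 means (6.43 outside at 48 h to 6.01 outside at 24 h) were separate. The in-sphere difference was 0.23 ± 0.52 at 24 h (95% interval -0.89 to 1.35) and -0.38 ± 0.52 at 48 h (-1.50 to 0.75). The limma adjusted p was 0.794 and 0.605, and 0.590 and 0.310 with the block, which brought the error to 0.27. Without the third in-sphere array the 48 h difference was -0.043 (limma, adjusted p = 0.965) and without outside replicate 1 it was -0.040 (limma, adjusted p = 0.967), while without in-sphere replicate 1 or outside replicate 2 it was -0.82 (limma, adjusted p = 0.247) or -0.68 (limma, adjusted p = 0.403).

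Scarb1 was at an intermediate level and did not pass either. At 24 h the in-sphere arrays read 5.54, 5.94 and 6.11 and the outside arrays 5.66, 5.92 and 5.41. At 48 h they read 5.85, 5.52 and 4.67 in spheres and 5.70, 5.84 and 5.85 outside, so that the low value is that of the array that stood apart. The difference was 0.20 ± 0.26 at 24 h (95% interval -0.37 to 0.76, limma, adjusted p = 0.634) and -0.45 ± 0.26 at 48 h (-1.01 to 0.11, limma, adjusted p = 0.197). Without in-sphere replicate 3 the latter was -0.11 (limma, adjusted p = 0.707), and without in-sphere replicate 1 it was -0.70 and passed (limma, adjusted p = 0.0483). From 24 h to 48 h Scarb1 differed by -0.52 ± 0.26 in spheres and 0.13 ± 0.26 outside (limma, adjusted p = 0.505 and 0.913), and all neighbours among its 4 group means overlapped. The in-sphere value was -0.18 without the third array of 48 h (limma, adjusted p = 0.887).

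Stab1 was well measured in every group and showed no called difference. At 24 h the in-sphere arrays read 7.87, 8.80 and 9.10 and the outside arrays 8.76, 8.19 and 8.28. At 48 h they read 9.17, 9.07 and 8.98 in spheres and 9.07, 8.62 and 8.88 outside. The difference was 0.18 ± 0.27 at 24 h (95% interval -0.40 to 0.76) and 0.21 ± 0.27 at 48 h (-0.36 to 0.79), with limma adjusted p of 0.672 and 0.564. Replicate 1 in spheres at 24 h was the lowest array, and without it the 24 h difference was 0.54 (limma, adjusted p = 0.0633). Stab1 averaged 0.48 ± 0.27 more at 48 h than at 24 h in spheres and 0.45 ± 0.27 more outside (limma, adjusted p = 0.544 and 0.583), and all neighbours in its order of means overlapped. Without replicate 1 in spheres at 24 h the in-sphere value was 0.12 (limma, adjusted p = 0.842).

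Cd163 stayed below the filter level on all 12 arrays and was therefore not tested. Its arrays read 2.25, 2.27 and 2.29 in spheres and 2.20, 2.25 and 2.06 outside at 24 h. At 48 h they read 2.30, 2.62 and 2.45 in spheres and 2.06, 1.90 and 2.19 outside, and these groups did not overlap. Its mean of 2.24 over all arrays lay at the 6.78th percentile of the named genes. At a signal this near the floor of the scale no difference in RNA was measurable. With no filter the 48 h difference was 0.41 (limma, adjusted p = 0.0178), at values that all stayed below the level.

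The promoters of Marco, Stab1 and Cd163 are shown because the first 2 genes were well above the filter level on every array and the last below it. PU.1, the product of Spi1, is a master regulator of macrophage genes and binds a purine-rich core. The sequences are the 250 bases before the start used in the RefSeq promoter table (GRCm38.p6), which matched 3 of the 6 members. That start lay at the edge of the annotated gene for Marco but inside it for the others, so that the window held the first 10 bases of Stab1 and the first 15 of Cd163. They are written on the gene's strand, from chr1:120505025-120505274 (minus strand) for Marco, chr14:31168642-31168891 (minus strand) for Stab1 and chr6:124304401-124304650 (plus strand) for Cd163. Capitals mark GAGGAA, the PU.1 core searched on both strands.
Marco: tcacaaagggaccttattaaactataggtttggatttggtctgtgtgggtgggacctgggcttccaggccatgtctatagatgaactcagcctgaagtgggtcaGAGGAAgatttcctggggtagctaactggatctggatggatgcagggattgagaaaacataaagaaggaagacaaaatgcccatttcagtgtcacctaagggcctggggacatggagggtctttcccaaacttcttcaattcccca
Stab1: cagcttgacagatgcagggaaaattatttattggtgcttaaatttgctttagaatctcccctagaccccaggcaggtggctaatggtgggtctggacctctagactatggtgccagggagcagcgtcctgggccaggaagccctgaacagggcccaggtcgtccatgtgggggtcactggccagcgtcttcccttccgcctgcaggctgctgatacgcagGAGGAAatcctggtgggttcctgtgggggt
Cd163: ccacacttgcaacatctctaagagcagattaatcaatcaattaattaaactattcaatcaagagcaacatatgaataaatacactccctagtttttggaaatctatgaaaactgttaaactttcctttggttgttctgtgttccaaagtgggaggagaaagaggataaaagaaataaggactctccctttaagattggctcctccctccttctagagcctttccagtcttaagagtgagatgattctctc
Counted from the 3' end of the window, Marco held 1 match at 146 to 141 bases and Stab1 held 1 at 30 to 25 bases, both on the gene's strand, and Cd163 held 0. Of 32851 RefSeq promoter windows 23.3% held the core in their 250 upstream bases, so a match is common and describes the letters only. Searched in the same way, the C/EBP palindrome TTGCGCAA (0.164% of windows), the Maf and NRF2 core TGAGTCA (4.46%) and the nuclear receptor half-site AGGTCA (14.0%) had 0 matches in the 3 windows. Spi1 itself differed between spheres and outside by -0.38 ± 0.15 at 24 h (limma, adjusted p = 0.0732) and by -0.66 ± 0.15 at 48 h (limma, adjusted p = 0.00419).

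Other scavenger receptors split in direction, with more lower than higher. Of 19 listed genes 17 were tested. At 24 h 3 were higher and 6 lower (median -0.18), and at 48 h 2 were higher and 6 lower (median -0.14). Of all tested genes 15.8% were called higher and 13.6% lower at 24 h, and 15.2% and 22.3% at 48 h. The higher calls of the list were near those shares. The 2 higher calls at 48 h were 0 to 1 in 12 of 21 alternatives, while the mean of all probe sets left 1 of the 3 higher calls at 24 h. At 24 h the most negative differences were those of Cd5l (-2.58 ± 0.42) and the engulfment receptor Megf10 (-1.68 ± 0.21). Cd5l is a secreted scavenger receptor cysteine-rich protein of macrophages. Next came Olr1, which encodes the oxidised LDL receptor LOX-1 (-1.32 ± 0.35), and Scarb2, the lysosomal relative of SR-BI (-1.28 ± 0.17). At 48 h Cd5l (-3.86 ± 0.42), Megf10 (-2.37 ± 0.21), the fatty acid and oxidised LDL receptor Cd36 (-1.33 ± 0.13) and Scarb2 (-1.26 ± 0.17) led. The limma adjusted p of these 8 results ran from 5.73e-06 to 0.0135. The call of Olr1 was lost without in-sphere replicate 1 (limma, adjusted p = 0.0649) or outside replicate 2 (limma, adjusted p = 0.0577) of 24 h. The endosomal mucin Cd68 differed between spheres and outside by -0.34 ± 0.13 at 24 h (limma, adjusted p = 0.0689) and by -0.75 ± 0.13 at 48 h (limma, adjusted p = 6.91e-04). Higher at both times were the mannose receptor Mrc1 (1.08 ± 0.28 and 1.05 ± 0.28) and the large endocytic receptor Lrp1 (0.95 ± 0.20 and 0.54 ± 0.20), the last with a limma adjusted p of 0.0494. At 48 h the call of Lrp1 was lost in 12 of 21 alternatives, among them the block (limma, adjusted p = 0.0661) and 8 of the 12 omissions of 1 array. That of Mrc1 was lost without outside replicate 2 of 48 h (0.81, limma, adjusted p = 0.0512), and without outside replicate 2 of 24 h its 24 h difference was 0.71, still called (limma, adjusted p = 0.0297). With the mean of all probe sets Lrp1 differed by 0.25 at 24 h and was not called (limma, adjusted p = 0.469).

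Genes listed for heme, iron and lipoprotein cholesterol handling were mostly lower in spheres. Of 10 genes of haemoglobin, heme and iron handling 0 were higher and 8 lower at 24 h (median -0.74), and 0 higher and 8 lower at 48 h (median -0.85). Of all tested genes 13.6% were called lower at 24 h and 22.3% at 48 h. The iron exporter ferroportin, Slc40a1, averaged 7.59 ± 0.093 (SD, n = 3) in spheres and 10.15 ± 0.040 outside at 24 h, and 6.54 ± 0.53 and 10.32 ± 0.093 at 48 h. The Slc40a1 difference was -2.56 ± 0.20 at 24 h (limma, adjusted p = 5.70e-06) and -3.78 ± 0.20 at 48 h (limma, adjusted p = 3.02e-07). The transferrin receptor Tfrc was lower in spheres by 1.39 ± 0.13 and 2.02 ± 0.13 (by 0.70 and 1.17 as the mean of its probe sets, still called). Haptoglobin, Hp, the serum partner of haemoglobin for Cd163, was lower by 1.62 ± 0.32 and 1.36 ± 0.32. The biliverdin reductase Blvrb differed by -0.97 ± 0.12 at 24 h and the heme transporter Slc48a1 by -1.45 ± 0.16 at 48 h, both called.

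Of 12 listed genes of lipoprotein cholesterol handling 9 were tested, of which 0 were higher and 7 lower at 24 h (median -0.99) and at 48 h (median -1.12). Over all tested genes 13.6% were called lower at 24 h and 22.3% at 48 h. The lower genes of the list were led at both times by the sterol hydroxylase Cyp27a1 (-1.81 ± 0.23 and -2.09 ± 0.23) and the lysosomal acid lipase Lipa (-1.45 ± 0.13 and -1.84 ± 0.13). The cholesteryl ester hydrolase Nceh1 (-1.17 ± 0.18 and -1.67 ± 0.18) and the sterol exporter Abcg1 (-1.09 ± 0.17 and -1.75 ± 0.17) followed. The limma adjusted p of these 4 genes lay between 1.84e-06 and 5.61e-04. The HDL receptor Scarb1 itself did not pass, as given above.

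Of 14 transcription factors known to act on such genes 13 were tested, with 1 higher and 6 lower at 24 h (median -0.53) and 1 higher and 7 lower at 48 h (median -0.45). Shares over all tested genes were 15.8% higher and 13.6% lower at 24 h, and 15.2% and 22.3% at 48 h. At 24 h Pparg (-1.76 ± 0.19), Cebpa (-1.47 ± 0.19) and the retinoid X receptor Rxra (-1.41 ± 0.24) were lower, and Klf4 was higher at 1.05 ± 0.17. Rxra differed by -0.60 and -1.08 at 24 h and 48 h as the mean of its probe sets, still called. At 48 h Pparg (-2.62 ± 0.19), the LXR gene Nr1h3 (-2.40 ± 0.22), Cebpa (-2.31 ± 0.19) and Rxra (-2.30 ± 0.24) were lower. Endocytic sorting genes had 3 higher and 1 lower of 10 tested at 24 h (median 0.088) and 3 higher and 2 lower at 48 h (median -0.061). Over all tested genes 29.4% were called in either direction at 24 h and 37.5% at 48 h. Counts over lists this short, here and for shedding, were not tested against these shares. The clathrin adaptor Dab2 (2.06 ± 0.17 and 2.05 ± 0.17), the caveolar protein Cav1 (2.38 ± 0.43 and 2.25 ± 0.43) and Gulp1, an adaptor of engulfment receptors (1.05 ± 0.27 and 0.83 ± 0.27), were higher. Gulp1 exceeded the filter level on 2 of 3 outside arrays at each time. Its call at 48 h was lost without in-sphere replicate 1 or 2 or outside replicate 1 or 2 of 48 h, with a limma adjusted p from 0.0685 to 0.101, and at 24 h its difference was 0.69 without in-sphere replicate 1 of that time. The stricter filter left it untested. Gga3, a sorting adaptor known as a partner of stabilin-1, was lower (-0.51 ± 0.17 and -1.14 ± 0.17). Among 4 shedding genes 1 was called higher at both times, the sheddase inhibitor Timp3 (1.44 ± 0.36 and 1.90 ± 0.36). As the mean of its probe sets Timp3 differed by 0.73 at 24 h, which was not called (limma, adjusted p = 0.0547), and by 0.94 at 48 h, which was. The call of Gga3 at 24 h (limma, adjusted p = 0.0384), the 1 lower call of its list, was lost in 9 of 21 alternatives, among them the block (limma, adjusted p = 0.0509) and 7 of the 12 omissions of 1 array.

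**Figure D5:**
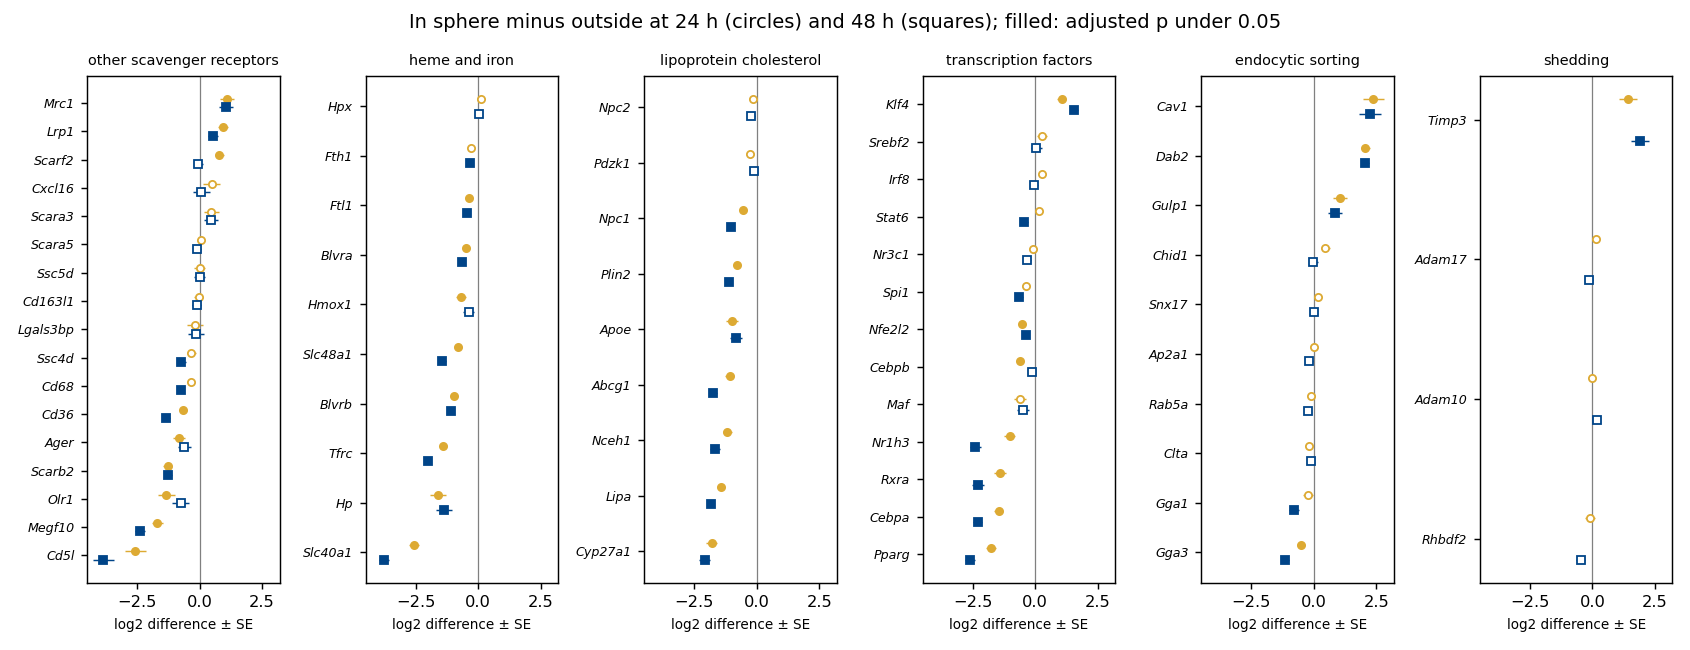
In-sphere minus outside log2 differences with SE (horizontal axis) for every tested gene of 6 lists, with circles for 24 h and squares for 48 h, and filled symbols for an adjusted p under 0.05. In the heme and iron list and in the lipoprotein cholesterol list 0 genes were called higher, while the list of other scavenger receptors spreads to both sides.

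Markers of other cells were called in some lists as well, where 29.4% of all tested genes were called at 24 h and 37.5% at 48 h. The neuroblastoma, endothelial and dendritic lists had called shares below these at both times. Of 10 stromal markers 4 were higher and 2 lower at 24 h and 5 higher and 3 lower at 48 h (1 to 2 lower at 24 h over the alternatives), with a summed level (log2 of the sum over the list) of 10.90 to 11.84 in spheres and 9.33 to 9.91 outside at 24 h, and 11.27 to 11.33 and 9.01 to 9.93 at 48 h. Neuroblastoma markers had 2 and 3 higher and 0 lower of 10 tested, with sums of 7.85 to 8.60 in spheres and 6.88 to 7.03 outside at 24 h and 7.94 to 8.30 and 6.60 to 6.70 at 48 h. The call of Elavl4 at 48 h is among the 3, a gene above the filter level on no arrays but those 3 in spheres at 48 h, so that it entered the test through the group where it was high. Of that list Chga, Gata3 and Tubb3 exceeded the filter level on 0 of 12 arrays, while the growth cone gene Gap43 (3.99 ± 0.30 and 4.41 ± 0.30) led, above that level on 1 of 3 outside arrays at 48 h. Granulocyte markers had 0 higher and 7 lower of 9 at both times. Over the alternatives 0 to 2 were higher at 24 h and 0 to 1 at 48 h. Mpo and Elane, the 2 not called, averaged higher in spheres at both times. Sums of the list were 14.17 to 14.64 in spheres and 15.34 to 15.60 outside at 24 h. At 48 h they were 13.60 to 14.28 and 15.07 to 15.49. Endothelial markers had 2 lower of 7 tested at 24 h (1 to 2 over the alternatives) and 1 at 48 h, with sums of 6.45 to 7.15 in spheres and 7.14 to 7.60 outside at 24 h, 6.34 to 6.95 and 6.97 to 7.19 at 48 h, and Tek and Tie1 above the filter level on 0 of 12 arrays. Dendritic cell markers had 0 of 5 called at 24 h and 1 lower at 48 h (Itgax, -1.03 ± 0.23), with sums of 5.84 to 5.97 in spheres and 5.78 to 5.97 outside at 24 h, 5.57 to 5.81 and 5.88 to 6.22 at 48 h, and Xcr1 above the filter level on 0 of 12 arrays. Macrophage markers had 1 higher and 3 lower of 9 at 24 h and 2 and 2 at 48 h (1 to 2 higher at 24 h and 1 to 3 at 48 h over the alternatives), with sums of 14.27 to 14.48 in spheres and 14.29 to 14.50 outside at 24 h, 14.32 to 14.42 and 14.33 to 14.42 at 48 h. As a sign of RNA quality, the gap between the 3' and 5' probe sets for beta-actin, wider in degraded RNA, ran on the log2 scale from 0.35 to 0.60 in spheres and from 0.22 to 0.32 outside at 24 h, and from 0.39 to 0.42 and 0.37 to 0.40 at 48 h. The same gap for Gapdh ran from -0.12 to 0.43 in spheres and from -0.043 to 0.17 outside at 24 h, which overlapped. At 48 h it ran from 0.11 to 0.15 in spheres and from 0.053 to 0.098 outside, without overlap. The part of the cell type markers and of RNA quality in the differences of Msr1, Marco and the lists above was not tested.

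The search for genes like each receptor passed over the members, uncharacterised gene models and every symbol starting with C or D and a digit. Complement genes named in that way were thus left out. Among the other tested genes, those with the highest Pearson correlation over the 12 arrays were taken, as a description in which group, experiment and array are shared. For Msr1 these were the mucin-type glycoprotein gene Pdpn (r = 0.99), the peroxidase gene Prdx2 (0.98) and the Ras pathway inhibitor Spred1 (0.98). For Marco they were the lipid antigen-presenting gene Cd1d1 (0.92), Zfp773 (0.92) and the vesicle fusion protein gene Vamp7 (0.92). For Scarb1 they were Xpo5 (0.94), Fbxw8 (0.94) and Deaf1 (0.93), whose Spearman rho was lower at 0.80, 0.71 and 0.73. Their lowest group mean, like that of Scarb1, was that in spheres at 48 h, the group with the array that stood apart. Scarb1 read 4.67 on that array, and the lowest values of the 3 genes in that group were 4.21, 4.53 and 2.67. The correlations were not computed without that array. For Colec12 they were the class A receptor Scara5 (0.89), Cacng8 (0.86) and Igf2bp3 (0.86). Stab1 was most like Nisch (0.92), its direct neighbour among protein-coding genes of chromosome 14 in the RefSeq table of GRCm38.p6, then Hivep3 (0.89) and Tmed10 (0.89). Pdpn averaged 10.10 ± 0.37 (SD, n = 3) in spheres and 6.33 ± 1.14 outside at 24 h. Zfp773, Scara5 and Cacng8 lay near the filter level, with group means between 2.51 and 2.92.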

How the data were processed

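RNA from 12 macrophage samples was hybridised to Affymetrix mouse arrays. The authors deposited RMA values on a log2 scale, computed with version 1.1 of Affymetrix Expression Console (source: submitters' processing notes). Base 2 was inferred from the span of the values. RMA corrects the background, makes the arrays' distributions alike and compresses differences of dim probe sets. The array number limits the precision.

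Exactly 1 gene symbol was given for 28898 probe sets, several for 551 and none for 15692, per the platform annotation. For each gene the probe set with the highest mean was kept, and genes above 2.77, the 40th percentile, on at least 3 arrays were tested. A group-means model over all 12 arrays was fitted in limma 3.58.1 (R 4.3.3), with 8 residual and 4.09 prior degrees of freedom, and a gene was called where its p, adjusted over 12488 genes by Benjamini-Hochberg, was under 0.05. Errors of differences are SE of this fit. Comparisons that use the same arrays are not independent.

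The series' design text calls each replicate an independent experiment with both compartments from the same cultures, so the replicate numbers were taken as pairing the arrays. Deviations from the group means of same-numbered arrays correlated weakly between in-sphere and outside arrays of the same time (0.021 to 0.12, above 0.1 in 3 of 6 pairs) and at up to 0.47 between outside arrays of 24 h and 48 h. Over all 18 pairs 12 were above 0.1. The block thus rests on the design text.

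The members and lists were chosen with earlier results of these data known. The text names all members, the 3 genes most like each member among those searched, and fixed macrophage genes. For the lists other than those of cell types it names up to 4 called genes per comparison with the largest differences. The cell type lists are given as counts and sums, with only some of their genes named. Spi1, Mrc1, Lrp1, Lyz2, Elane, Mpo, S100a9 and the markers above the filter level on no array were named after their values were seen. The promoter motifs were chosen then too. Of 129 list genes, 120 had a single-symbol probe set and 113 were tested. Alternatives were a replicate block, other filters, the mean of probe sets, median centring, array weights, a variance trend, only the groups compared, and leaving out each array.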

Additional observations from a re-analysis of the deposited data

How the results depend on the processing

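Msr1 stayed called and higher at both times under all 21 alternatives (log2 difference 1.13 to 1.58 at 24 h and 0.92 to 1.15 at 48 h). Marco stayed lower at both times under all 21 (log2 difference -2.28 to -1.40 at 24 h and -1.99 to -0.55 at 48 h). Its call at 24 h was lost with no filter on dim probe sets, which adds genes to the adjustment (-1.87, adjusted p = 0.0612, from 9.46e-04 to 0.167 over all alternatives), leaving 1 called member. At 48 h Marco was called with the replicate block (-1.43, adjusted p = 0.00883), giving 2 called members. It was also called with the block and without the third in-sphere array of 48 h, an alternative chosen after seeing the data (-1.03, adjusted p = 0.0407, 2 called members). In that fit Marco was also called lower with time outside (-1.58, adjusted p = 0.0300), making 1 called member. The block changed no other member's call. With no filter, Cd163 at 48 h gave 0.41 (adjusted p = 0.0178) at values below the filter level, and 2 members were called.

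Over the fits that leave out 1 array, called members numbered 1 to 2 at 24 h and 1 to 3 at 48 h. The Marco difference ran from -2.28 to -1.40 at 24 h and from -1.99 to -0.68 at 48 h, that of Scarb1 at 48 h from -0.70 to -0.11, that of Stab1 at 24 h from -0.074 to 0.54 and that of Colec12 at 24 h from -0.31 to 0.56. Among results that passed no test, signs turned in the fits that leave out 1 array for the change between times of Marco (-0.12 to 1.19) and Stab1 (-0.33 to 0.29), for Msr1 with time outside (-0.089 to 0.30), for Colec12 with time outside (-0.12 to 0.75) and in spheres (-0.64 to 0.17), and at 24 h for Csf1r and Itgam (-0.40 to 0.034 and -0.056 to 0.37). With array weights Colec12 was -0.27 at 24 h and 0.19 with time in spheres, and the change of Stab1 was -0.041. With the block and without the third in-sphere array of 48 h, Colec12 with time in spheres was 0.16. The cause was not tested.

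Over all genes, the in-sphere counts of 3669 at 24 h and 4685 at 48 h stayed within 1.5 times of themselves under the alternatives (2930 to 4879 and 3811 to 5958). With time outside, 42 genes were called, against 158 with the block, 234 with the block and without the third in-sphere array of 48 h, 286 with array weights, 88 with a variance trend, 1 with only the groups compared and 0 to 68 leaving out 1 array. With time in spheres limma called 0 (1341 at an unadjusted p under 0.05), against 15 with the block, 2 with the block and without that array, 4 with no filter, 4 with the stricter filter, 9 with the mean of probe sets, 13 with centred arrays, 115 with array weights, 9 with a variance trend and 0 to 10 leaving out 1 array. For the change between times limma called 0 (1534 at an unadjusted p under 0.05), against 65, 5, 130, 5 and 1 with the block, the block without that array, array weights, a variance trend and the mean of probe sets, and 0 to 2 leaving out 1 array. Signal near the floor limits Cd163.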
